A study of Mus musculus with 2 samples.

Results

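The genes examined here were 10 regulators of oxidative and glucose metabolism, taken from a named list: Ppargc1a, Ppargc1b, Esrra, Nrf1, Tfam, Ppara, Ppard, Slc2a4, Hk2 and Pdk4. Their members were CpG cytosines in the gene bodies and within 1 kb either side of each gene start. A cytosine was used when it had at least 5 reads in each library and lay outside the MspI and TaqI recognition sites (CCGG and TCGA). In all, 1199 cytosines of 687 CpGs qualified, out of 1850635 cytosines in the whole series, and all 10 genes had some. DNA methylation had been measured by reduced representation bisulfite sequencing (RRBS). In this assay genomic DNA is cut at CpG-containing sites, short fragments are kept, and bisulfite leaves methylated cytosine as C while unmethylated cytosine is read as T. The DNA came from mouse C3H myoblasts, a muscle precursor line, that had been differentiated into myotubes. The cells had been transfected with a control siRNA (siCon) or with an siRNA that targets the H19 transcript, a long non-coding RNA (siH19), and were collected 48 h later. There was 1 library per group, so no value below has a replicate check, and every test compares the reads of these 2 libraries, not the conditions. RRBS measures no RNA, so neither the knockdown nor the expression of any gene could be read from these data. Intervals, limits and p-values cover counting error only, and because a read that spans several CpGs counts at each of them, the intervals are too narrow and the p-values too small.

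Muscle fibres match their mitochondria and fuel choice to demand through a small transcriptional circuit. The coactivators PGC-1α (Ppargc1a) and PGC-1β (Ppargc1b) do not bind DNA themselves and act through factors such as ERRα (Esrra), NRF1 (Nrf1), PPARα (Ppara) and PPARδ (Ppard), which bind near mitochondrial and fatty acid oxidation genes. NRF1 and its partners in turn drive Tfam, whose product packages and transcribes mitochondrial DNA. On the glucose side, GLUT4 (Slc2a4) takes up glucose in response to insulin and contraction, hexokinase 2 (Hk2) traps it as glucose-6-phosphate, and PDK4 (Pdk4) inhibits the pyruvate dehydrogenase complex, which spares glucose when fatty acids are burned. Methylation of CpG-rich promoters is commonly linked to silencing, whereas gene bodies are often methylated in active genes too.

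A selection of stretches is given first, in GRCm38, on each gene's own strand and 5′ to 3′. It does not hold every fragment named below. All but the Ppargc1a sequence are restriction fragments with their MspI or TaqI sites, and capitals mark the CpGs with at least 1 strand in the comparison. The other CpGs lay in the sites or were read too little. The Ppargc1a sequence is shown because no cytosine in it could be compared. Its capitals mark the 1 match to the cAMP response element TGACGTCA, which begins 83 bases before the transcript start. The introns of Hk2, Ppard and Ppara held some of the low-level differences described further on, and the shorter Tfam intron held a strongly changed cytosine. The other stretches lie near gene starts and were under 5% methylated in both libraries.
Ppargc1a, 250 bases before a transcript start, chr5:51553923-51554172, minus strand: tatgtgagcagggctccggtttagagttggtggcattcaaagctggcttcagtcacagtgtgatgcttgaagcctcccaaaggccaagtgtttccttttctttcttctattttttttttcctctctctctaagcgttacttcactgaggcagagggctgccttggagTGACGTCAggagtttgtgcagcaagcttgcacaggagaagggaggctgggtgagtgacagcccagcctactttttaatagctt
Esrra, upstream, chr19:6921931-6922020, minus strand: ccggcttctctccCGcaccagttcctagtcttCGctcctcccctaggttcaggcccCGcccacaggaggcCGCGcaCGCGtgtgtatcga
Nrf1, upstream, chr6:30047621-30047787, plus strand: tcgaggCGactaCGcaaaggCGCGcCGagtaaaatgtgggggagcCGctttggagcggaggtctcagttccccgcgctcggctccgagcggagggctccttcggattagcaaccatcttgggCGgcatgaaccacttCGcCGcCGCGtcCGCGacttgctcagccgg
Tfam, intron and coding exon, chr10:71237771-71237885, minus strand: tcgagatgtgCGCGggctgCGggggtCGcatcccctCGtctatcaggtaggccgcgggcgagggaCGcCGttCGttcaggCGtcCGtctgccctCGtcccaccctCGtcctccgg
Tfam, intron, chr10:71233866-71233935, minus strand: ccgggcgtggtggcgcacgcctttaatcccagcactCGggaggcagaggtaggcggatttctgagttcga
Ppara, upstream, chr15:85734824-85734886, plus strand: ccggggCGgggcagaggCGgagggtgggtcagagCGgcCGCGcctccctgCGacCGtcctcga
Ppara, intron, chr15:85772250-85772360, plus strand: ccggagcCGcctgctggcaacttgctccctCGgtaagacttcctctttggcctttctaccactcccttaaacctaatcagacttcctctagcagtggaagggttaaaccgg
Ppard, intron, chr17:28232896-28233036, plus strand: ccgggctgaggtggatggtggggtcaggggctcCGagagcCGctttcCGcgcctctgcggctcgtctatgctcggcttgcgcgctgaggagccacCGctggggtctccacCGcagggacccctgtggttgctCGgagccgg
Slc2a4, upstream, chr11:69948455-69948581, minus strand: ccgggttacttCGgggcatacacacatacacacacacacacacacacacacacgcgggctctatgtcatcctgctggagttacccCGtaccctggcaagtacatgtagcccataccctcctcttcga
Hk2, intron, chr6:82773508-82773582, minus strand: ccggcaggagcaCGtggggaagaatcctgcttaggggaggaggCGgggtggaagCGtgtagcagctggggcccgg
Pdk4, upstream, chr6:5496566-5496800, minus strand: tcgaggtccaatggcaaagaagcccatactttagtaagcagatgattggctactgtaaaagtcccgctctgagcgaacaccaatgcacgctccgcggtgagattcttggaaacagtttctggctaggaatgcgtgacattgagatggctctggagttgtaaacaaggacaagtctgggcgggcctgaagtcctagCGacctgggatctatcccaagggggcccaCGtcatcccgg

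In both libraries each of the 9 genes with a measured promoter window was less methylated in it than in the rest of the gene, and the windows of Slc2a4 and Ppara were the most methylated. Of the 1199 cytosines, 741 had a level of at most 10% in siCon, 254 of at least 80% and 204 lay between, and 408 had no methylated read in either library. The 673 cytosines in promoter windows (1 kb either side of the gene start) stood at 3.55% in siCon and 3.31% in siH19, and the 526 outside them at 51.1% and 51.2%. These are matched levels, in which every cytosine has the same weight in both libraries, set by its read numbers in the pair. A different spread of reads over cytosines therefore does not enter them. Outside the windows the siCon level ran from 32.5% in Ppara and 32.8% in Ppargc1b to 86.2% in Nrf1 and 89.2% in Tfam. Pooled over the genes, coding exons outside the windows were the most methylated, at 89.2% and 89.9%, and introns there stood at 38.8% and 39.1%. The intron level varied widely by gene. In siCon it ran from 19.6% in Slc2a4 (2 cytosines) and 21.6% in Ppargc1b (131 of the 355) to 77.5% in Nrf1 and 92.4% in Tfam. CpG islands held 913 of the 1199 cytosines, and the median depth was 28 reads in siCon and 30 in siH19.

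**Figure D1:**
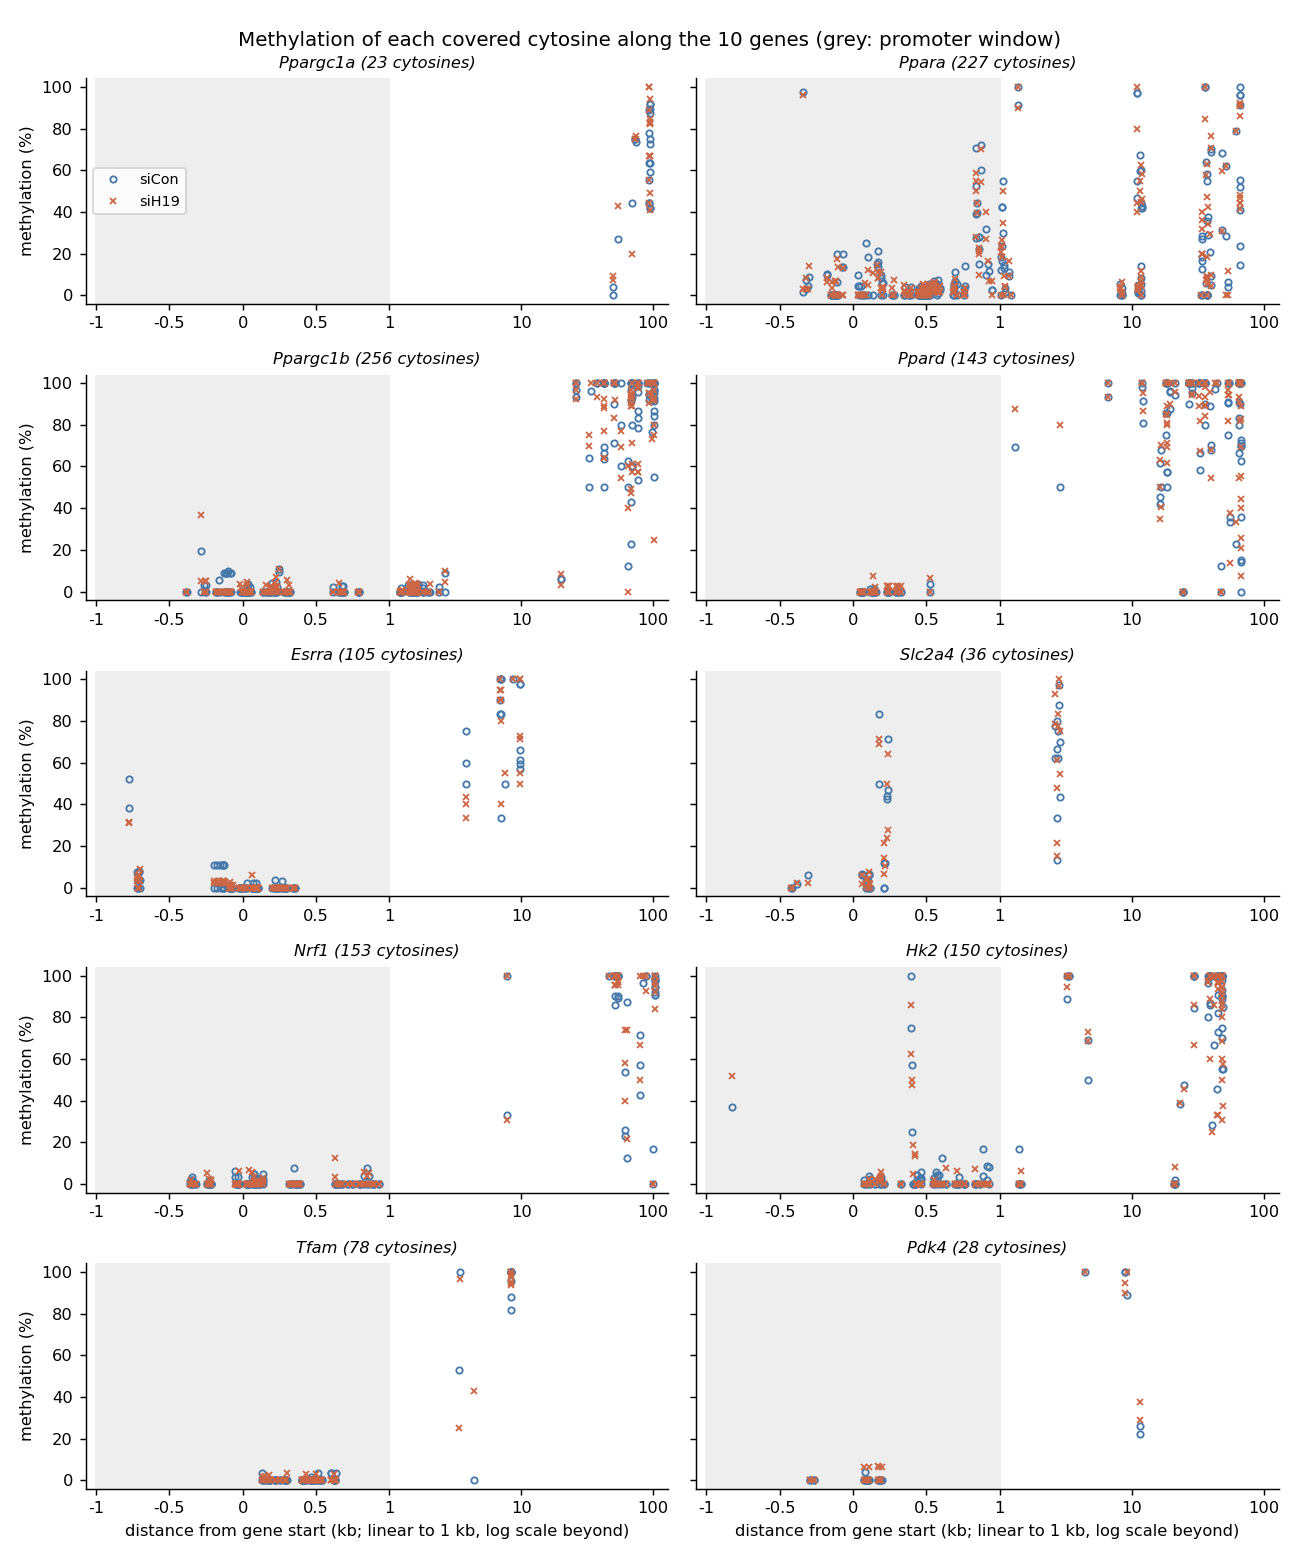
Methylation level (%, vertical axis) of each covered cytosine against its distance from the gene start (kb, linear to 1 kb and logarithmic beyond), 1 panel per gene, circles for siCon and crosses for siH19, with the promoter window in grey. Levels were near 0 around the starts of Ppargc1b, Nrf1, Tfam, Ppard and Pdk4 and mixed within the windows of Ppara, Slc2a4 and Hk2, and Ppargc1a had no point in its window.

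No promoter window of the 10 genes passed the adjusted test. Levels were compared by a Cochran-Mantel-Haenszel chi-square test stratified by cytosine, with Benjamini-Hochberg adjustment over all 19476 promoters with at least 5 cytosines. A region was called when its adjusted p was under 0.05 and its levels were at least 10 percentage points apart. Of the 9 promoters that could be tested, 0 were called, where 0.626% of all promoters were. An adjusted p under 0.05 alone was reached by 0 of the 9 and by 7.39% of all promoters. An unadjusted p under 0.05 was found in 2 of the 9, Hk2 and Pdk4. No share over all promoters is given for that cut, so this count cannot be judged against it. The 9 differences (siH19 minus siCon throughout) ran from -1.16 points in Slc2a4 to 1.61 points in Pdk4. Of these, 3 were above 0 and 6 below, and their median was -0.192 points, beside 0.0884 over all promoters. The counting interval of the difference lay within 10 points of 0 in all 9. The median level of these promoters in siCon was 1.26%, against 3.78% over all promoters.

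In gene bodies, 0 of the 10 genes were called, where 0.365% of all 23274 gene bodies were. An adjusted p under 0.05 without the 10-point condition was reached by 3.7% of all gene bodies and by 1 of the 10 genes, Hk2, whose level was 1.70 points lower in siH19 (difference -1.70). The 10 differences had a median of 0.197 points, 7 above 0 and 3 below, beside a median of 0.129 over all gene bodies. The interval stayed within 10 points of 0 in 9 genes. In Ppargc1a, with the fewest cytosines, it reached 12.2 points.

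**Figure D2:**
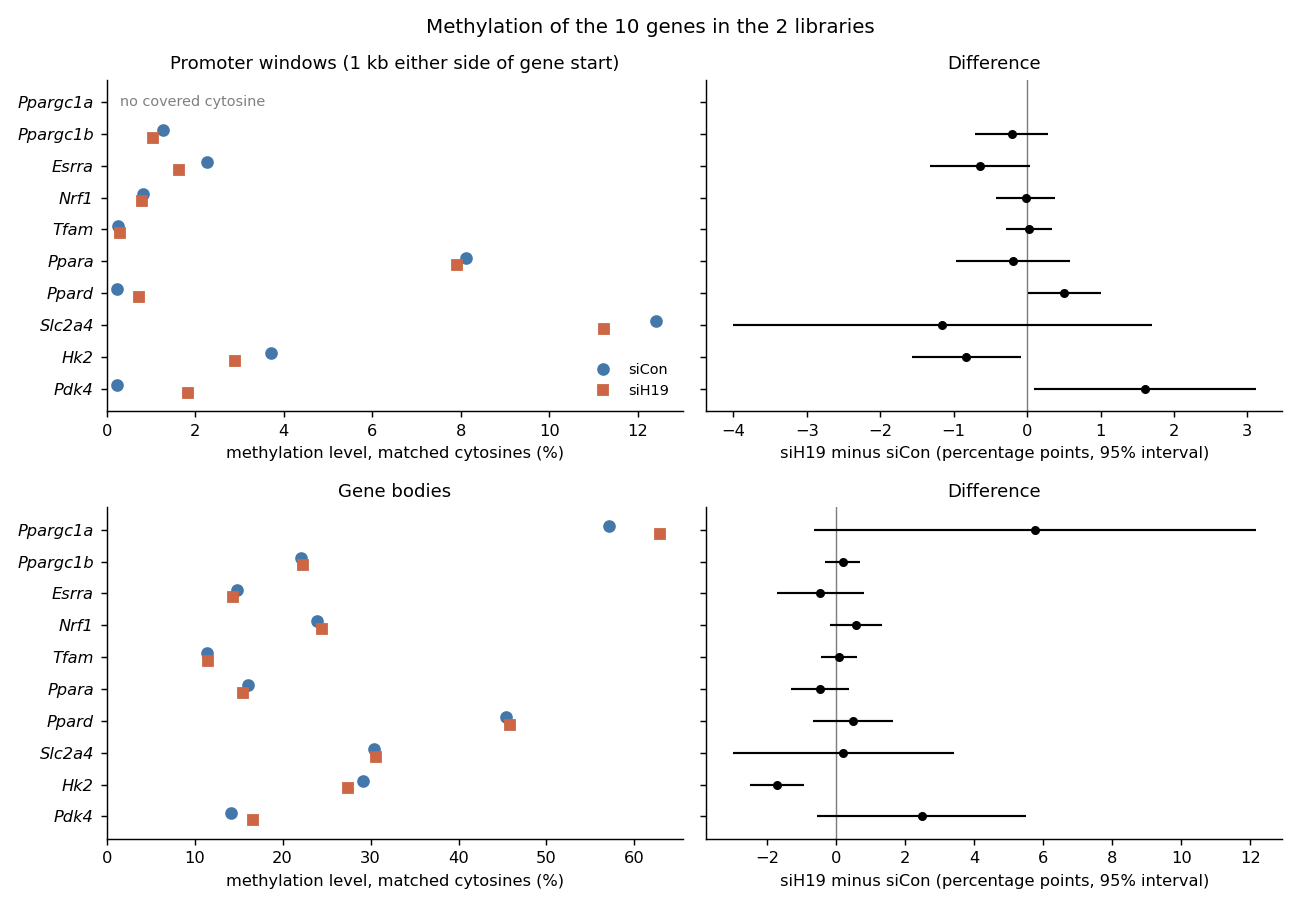
Matched methylation level (%) of each gene in siCon (circles) and siH19 (squares), left, and the difference siH19 minus siCon in percentage points with its 95% counting interval, right, for promoter windows (top) and gene bodies (bottom). The Hk2 gene body, at -1.70 points, was the only region here with an adjusted p under 0.05, and the widest interval belonged to the Ppargc1a gene body.

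Ppargc1a encodes PGC-1α, the coactivator at the head of the mitochondrial programme, and could be followed only far inside the gene (ENSMUSG00000029167.13, chr5:51454250-51567726, minus strand). It had 23 cytosines of 14 CpGs, none within 1 kb of the annotated start, and the nearest lay 49989 bp from it. That window held 21 CpGs, 1 CCGG and 1 TCGA. The transcripts of the basic annotation start 13804 and 13835 bp further into the gene, and 0 cytosines reached 5 reads there either. Within 1 kb of each of these starts lay 25 CpGs and 3 CCGG sites, and 3 cytosines had any read. The 250 bases printed above hold only 3 CpGs. The promoter of Ppargc1a was thus not measured at any of these starts.

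What was measured of Ppargc1a was mostly of intermediate methylation, with 16 of its 23 cytosines between 10% and 80% in siCon. The matched gene-body level was 57.1% in siCon against 62.9% in siH19, 5.77 points apart (SE 3.26; stratified chi-square, adjusted p = 0.353). Of the 23 cytosines, 12 were higher and 8 lower in siH19. Coding exons, with 18 of the cytosines, stood at 68.4% and 74.0%, and the 5 intron cytosines at 25.5% and 31.7%. Among fragments with at least 3 cytosines, the one with the lowest p lay 93533 to 93561 bp from the start and stood at 63.8% and 73.6% over 6 cytosines (stratified chi-square, adjusted p = 0.720). The SE of that difference, 9.80 points, was as large as the difference itself, 9.79.

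Ppargc1b, the gene of the related coactivator PGC-1β, had the most cytosines, 256, and a promoter near 0 (ENSMUSG00000033871.14, chr18:61298136-61400431, minus strand). Its promoter window held 101 of them and stood at 1.26% in siCon and 1.05% in siH19 (SE of the difference 0.253; stratified chi-square, adjusted p = 0.668). The low level ran on through the island that spans the start, from -458 to 2059 bp (negative positions lie upstream of the start), whose 166 cytosines stood at 0.922% and 0.827%. Near the hosted microRNA gene Mir378a, the island from 2248 to 2519 bp had 2 covered cytosines. They stood at 1.56% of 58 reads in siCon and 0% of 19 in siH19. On the other side of Mir378a, the 2 cytosines at 2663 and 2664 bp stood at 3.19% of 52 reads and 6.46% of 32. Low levels reached to 19868 bp, where the cytosines of a CpG on both strands together stood at 6.14% and 5.48%. The next covered fragment, from 25951 bp, was at 96.5% and 97.7%, and the coding-exon fragment from 100733 to 100774 bp at 97.1% and 99.2%. Over the whole gene body the levels were 22.1% and 22.3% (difference 0.191, SE 0.254).

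Esrra, the gene of the orphan receptor ERRα that partners PGC-1α, had a low and uneven promoter (ENSMUSG00000024955.14, chr19:6910977-6921813, minus strand). Its 87 promoter cytosines stood at 2.28% and 1.63% (difference -0.648, SE 0.347; stratified chi-square, adjusted p = 0.261). The 28 cytosines from -11 to 107 bp stood at 0.298% and 0.293%, whereas 12 cytosines from -773 to -701 bp, in the neighbouring gene Catsperz, stood at 10.9% and 7.99%. In that stretch a single CpG carried most of the methylation, with 13 of 25 and 10 of 26 reads on its strands in siCon and 10 of 32 and 7 of 22 in siH19. In the upstream fragment printed above, from -194 to -128 bp, siCon had 3 methylated of 27 reads at each of 7 minus-strand cytosines, and siH19 had 1 of 32 at each. On the plus strand siCon had 1 methylated read summed over 7 cytosines and siH19 had 7, 1 at each, so 7 cytosines of the fragment were lower and 7 higher in siH19. The same number at all 7 minus-strand cytosines shows how reads that cross several CpGs repeat in these counts.

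Further into Esrra the levels were high in both libraries, at 75.8% and 74.0% over the 18 cytosines outside the window. The gene body stood at 14.9% and 14.4% (difference -0.459, SE 0.641). The lowest p among its fragments with at least 3 cytosines belonged to an intron fragment from 3800 to 3840 bp with 3 cytosines, at 61.6% of 26 reads in siCon and 39.3% of 46 reads in siH19. That gap had an SE of 13.1 points and did not pass (stratified chi-square, adjusted p = 0.438).

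Nrf1 encodes a factor for nuclear genes of the respiratory chain, and its promoter window was alike in the libraries (ENSMUSG00000058440.14, chr6:30047988-30153458, plus strand). Its 114 promoter cytosines stood at 0.821% and 0.799% (difference -0.0217, SE 0.206; stratified chi-square, adjusted p = 0.973). The transcript starts at 28333, 41901 and 41907 bp had 0 cytosines with a read within 1 kb, so they were not measured. In the fragment printed above, from -361 to -215 bp, 26 cytosines stood at 0.425% and 0.531%. Outside the window, its 39 cytosines stood at 86.2% and 88.4%. Among fragments with at least 3 cytosines, that with the lowest p lay from 61219 to 61250 bp and had 3, at 32.6% of 49 reads in siCon and 53.6% of 73 reads in siH19 (stratified chi-square, adjusted p = 0.248). It is the end of a long restriction interval of 5518 bp.

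Ppara, the gene of the fatty acid receptor PPARα, had a promoter window with a graded level (ENSMUSG00000022383.13, chr15:85734983-85802819, plus strand). Over 140 cytosines it stood at 8.11% in siCon and 7.92% in siH19 (difference -0.192, SE 0.399; stratified chi-square, adjusted p = 0.839). The level was 22.4% and 22.7% from -342 to -179 bp, 1.21% and 1.61% from 441 to 527 bp, and 31.1% and 29.8% from 757 to 872 bp. The steps along the gene were thus many times larger than the gap between the libraries. Introns further in were patchy. The fragment from 8483 to 8487 bp stood at 0.954% and 1.34%, that from 10991 to 11005 bp at 73.9% and 65.9%, and that from 11232 to 11261 bp at 2.64% and 3.80%. Over the gene body the levels were 16.0% and 15.6% (difference -0.463, SE 0.425).

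The Ppara intron fragment printed above, from 37274 to 37298 bp, had the lowest p of the gene's fragments with at least 3 cytosines. It had 0 methylated of 120 reads in siCon, which allows up to 2.5%, and 6 of 93 in siH19, with at most 3 at any of its 4 cytosines (difference 6.67; stratified chi-square, adjusted p = 0.116). Close to the annotated gene start, neighbouring fragments lay on opposite sides of 0. The transcripts of the basic annotation start further into Ppara, at 581, 793 and 1148 bp. The upstream one printed above, which begins at -153 bp, stood at 0.905% and 4.74% over 14 cytosines (stratified chi-square, adjusted p = 0.152). The next, from -73 to 55 bp, stood at 7.93% and 2.01% over 9 cytosines (stratified chi-square, adjusted p = 0.368).

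Ppard is the gene of PPARδ, the main PPAR of skeletal muscle, and had an almost unmethylated promoter (ENSMUSG00000002250.16, chr17:28232700-28301474, plus strand). Its 42 promoter cytosines stood at 0.238% in siCon and 0.743% in siH19 (difference 0.505, SE 0.252; stratified chi-square, adjusted p = 0.241). The intron fragment printed above, from 229 to 329 bp, had 0 methylated of 378 reads in siCon, which allows up to 0.794%, and 6 of 261 in siH19 (difference 2.15; stratified chi-square, adjusted p = 0.161). Those 6 were 1 read at each of 6 plus-strand cytosines, of 34 or 35 reads, and the minus strand had 0. Outside the window, 101 cytosines stood at 79.4% and 79.9%. An intronic spot from 24296 to 24313 bp had 0 of 93 reads in siCon and 0 of 21 in siH19, which allow up to 3.23% and 14.3%.

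Tfam, the gene of the mitochondrial DNA packaging and transcription factor, had a promoter under 0.3% in both libraries (ENSMUSG00000003923.14, chr10:71225464-71238280, minus strand). Its 67 promoter cytosines stood at 0.269% and 0.294% (difference 0.0257, SE 0.158; stratified chi-square, adjusted p = 0.959). The fragment printed above, from 405 to 501 bp, supplied 24 of them, at 0.0794% and 0.218%. Of the fragments with at least 3 cytosines, the one from 512 to 634 bp had the lowest p and stood at 0.827% and 0.204% (stratified chi-square, adjusted p = 0.614). Of the 78 cytosines of Tfam only 11 lie outside the window, at 89.2% and 89.8%, and the gene-body level was 11.5% in both libraries (difference 0.0949, SE 0.266).

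Slc2a4, the GLUT4 gene, had the highest promoter level of the 9 measured (ENSMUSG00000018566.14, chr11:69942539-69948188, minus strand). Its 24 promoter cytosines stood at 12.4% and 11.2% (difference -1.16, SE 1.46; stratified chi-square, adjusted p = 0.705). With reads summed over its cytosines the difference was -4.55 points (Fisher's exact test, adjusted p = 0.0388). Methylation climbed within a short distance of the start: it was 3.14% and 3.08% from 59 to 115 bp, and 34.2% and 31.2% from 177 to 240 bp. In the upstream fragment printed above, 2 cytosines stood at 4.22% and 2.38%. Over the gene body the levels were 30.4% and 30.6% (difference 0.203, SE 1.63). Of the fragments with at least 3 cytosines, the one with the lowest p lay in an intron from 2697 to 2741 bp and stood at 47.7% and 35.9%, with an SE of the difference of 8.91 points (stratified chi-square, adjusted p = 0.606).

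Hk2, which encodes the main hexokinase of muscle, was the only one of the 10 genes with a gene body past the adjusted test, and the difference was small (ENSMUSG00000000628.10, chr6:82725025-82774454, minus strand). The gene body stood at 29.2% in siCon and 27.5% in siH19 over 149 cytosines (difference -1.70, SE 0.399; stratified chi-square, adjusted p = 0.00278). The promoter window stood at 3.72% and 2.90% over 76 cytosines (difference -0.827, SE 0.382; stratified chi-square, adjusted p = 0.192). Within the window 15 cytosines were higher in siH19 and 28 lower, and outside it 14 were higher and 27 lower. Coding exons stood at 96.5% and 96.7% over 27 cytosines. Non-coding exon sequence outside the window stood at 91.0% and 81.6% over 20 cytosines, of which 12 were lower and 2 higher. An island near the end of the gene, from 48294 to 48618 bp, held 12 of these 20 and stood at 95.4% and 88.6% (difference -6.74, SE 2.37).

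The Hk2 gene-body result depended on the settings. With the variation between cytosines taken into the test the adjusted p was 0.0405, and with at least 10 reads per cytosine 0.00103. It missed the threshold without the first 1 kb of the gene, at -3.04 points (stratified chi-square, adjusted p = 0.0686), and with the cytosines of the restriction sites included, at -0.775 points (stratified chi-square, adjusted p = 0.417). With reads summed over cytosines the sign turned, to 1.28 points (Fisher's exact test, adjusted p = 0.326).

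Pdk4, the gene of the kinase that inhibits pyruvate dehydrogenase, had an almost unmethylated promoter in siCon (ENSMUSG00000019577.6, chr6:5483351-5496309, minus strand). Its 22 promoter cytosines stood at 0.237% and 1.84% (difference 1.61, SE 0.772; stratified chi-square, adjusted p = 0.170). The fragment from 77 to 195 bp, with 18 of them, stood at 0.273% and 2.12% (stratified chi-square, adjusted p = 0.289). It had 1 methylated of 310 reads in siCon and 5 of 294 in siH19, at most 1 at any cytosine. All were on the plus strand, and the minus strand had 0 in both libraries. In the upstream fragment printed above all 4 cytosines had 0 methylated reads, of 94 in siCon and 28 in siH19, which allow up to 3.19% and 10.7%. Over the gene body the levels were 14.1% and 16.6% for 24 cytosines (difference 2.47, SE 1.55).

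Cytosine by cytosine, differences lay on both sides of 0 in near-equal number. Of the 1199 cytosines 345 were higher in siH19 and 347 lower, and the median difference was 0 in 9 of the 10 genes. By Fisher's exact test on methylated and unmethylated reads, two-sided, 18 cytosines (1.5%) had an unadjusted p under 0.05, against 2.53% of all cytosines. After Benjamini-Hochberg adjustment over all cytosines 0 of the 1199 passed, which 0.00648% of all did. The lowest adjusted p, 0.872, belonged to a coding-exon cytosine of Ppara at 52267 bp, named here after its value was seen. It had 8 methylated of 28 reads in siCon and 0 of 29 in siH19 (Fisher's exact test, p = 0.00188). A change was termed strong when the unadjusted p was under 0.05 and the levels were 33 points or more apart. This was met by 3 members upward and 1 downward, 0.334% of them together, while 0.519% of all cytosines were strongly higher and 0.467% strongly lower.

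The 4 strongly changed cytosines fell in 4 genes. In a coding exon of Ppargc1a, position 51473558 of chr5 had 8 of 19 methylated reads in siCon (42.1%, Wilson 95% interval 23.1 to 63.7%) and 19 of 23 in siH19 (82.6%, 62.9 to 93.0%; Fisher's exact test, p = 0.0099). The cytosine of the same CpG on the other strand stood at 75.0% of 8 reads and 66.7% of 9, and the next CpG on the same strand had 17 of 19 and 19 of 23. In Ppargc1b, at -285 bp, siCon had 0 of 15 reads, which allows up to 20%, and siH19 7 of 19 (36.8%, Wilson 95% interval 19.1 to 59.0%; Fisher's exact test, p = 0.0106). Its partner on the other strand stood at 19.4% in siCon and 5.26% in siH19. Neither change was thus seen on both strands.

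In the Tfam intron printed above, at 4381 bp, siCon had 0 of 8 reads, which allows up to 37.5%, and siH19 12 of 28 (42.9%, Wilson 95% interval 26.5 to 60.9%; Fisher's exact test, p = 0.0334). The reference genome marks this stretch of Tfam as a repeat, and its partner strand had no siCon read. In an Hk2 intron, at 29442 bp, siCon had 20 of 20 reads and siH19 4 of 6 (66.7%, Wilson 95% interval 30.0 to 90.3%; Fisher's exact test, p = 0.0462). The partner of the Hk2 cytosine stood at 91.7% of 12 reads and 100% of 4. A CpG is normally methylated on both strands, so the partner is a further reading of the same CpG within a library. Of the 2 strong cytosines whose partner had 5 reads in both libraries, those of Ppargc1a and Ppargc1b, 0 had a partner that moved the same way.

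**Figure D3:**
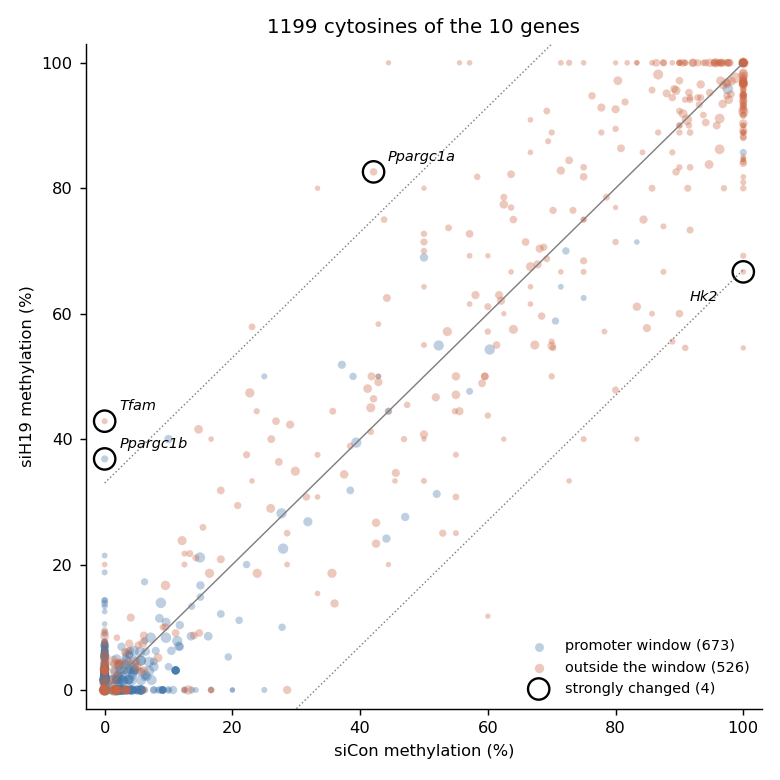
Methylation level (%) in siCon (horizontal) and siH19 (vertical) of the 1199 cytosines of the 10 genes, in blue for promoter windows and in orange for cytosines outside them, with larger points for more reads; the solid line marks equality and the dotted lines a difference of 33 points. The 4 rings mark the strongly changed cytosines, and the other points beyond the dotted lines did not reach p under 0.05.

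Over all members of the 10 genes the strands of a CpG differed within a library by about as much as the libraries differed on a strand. For the 512 CpGs with both strands covered, the mean absolute difference between strands was 4.81 points in siCon and 4.53 in siH19. Between libraries it was 4.13 points on the plus and 3.85 on the minus strand. Where both strands of a CpG differed between libraries, the signs were the same in 100 of 213 (46.9%), and in 50.6% of such CpGs over the series.

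The fragment is the piece of DNA that RRBS reads, and at this scale Ppargc1b and Hk2 held 3 differences that passed the adjusted test, all small and all lower in siH19. Of the 122 fragments of the 10 genes with at least 3 cytosines, 0 were called with at least 10 points, where 1.07% of all 200238 fragments were. An adjusted p under 0.05 was reached by 3 of them and by 2% of all, and the 3 are named here because they were so few. In Ppargc1b, from -126 to -79 bp, siCon had 12 methylated of 431 reads summed over 16 cytosines and siH19 0 of 939, which allows up to 0.319% (difference -3.05; stratified chi-square, adjusted p = 4.81e-06). All 12 were on the plus strand, where no siCon cytosine had more than 2 methylated reads or more than 22 reads. The minus strand had 0 methylated reads in both libraries. In the Hk2 intron fragment printed above, from 884 to 927 bp, siCon had 9 of 250 over 6 cytosines and siH19 0 of 444, which allows up to 0.676% (difference -3.73; stratified chi-square, adjusted p = 0.00451). In Hk2 from 438 to 585 bp, siCon had 29 of 1138 over 18 cytosines and siH19 1 of 754 (difference -2.40; stratified chi-square, adjusted p = 0.00653). No cytosine of these Hk2 fragments had more than 4 methylated reads. In all 3 fragments a read that crosses several CpGs counts at each of them. The sums above are thus not numbers of separate reads, and the adjusted p-values are too small. Among the 122 fragments, 58 were higher in siH19 and 55 lower, with a median difference of 0.

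Reads were spread differently over fragment lengths in the libraries, and in some genes the difference on summed reads departed from the matched one. In the 10 genes, fragments of 1 to 79 bp had 2.05 times as many reads in siH19 as in siCon. The ratio was 0.960 for 80 to 119 bp, 0.812 for 120 to 159 bp, 0.710 for 160 to 199 bp and 0.395 for 200 to 259 bp. Over all cytosines of the series it ran in the same order from 1.93 to 0.425. What produced the difference in fragment length was not tested, nor was its part in the summed levels.

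Ppard had the widest gap between summed and matched levels. Its nearly unmethylated promoter window supplied 46.4% (siCon) and 35.7% (siH19) of the gene's reads, while the rest of the gene stood at 75.1% and 82.6% on summed reads. Summed over the gene body, the levels were 40.4% and 53.4%, a gap of 13.0 points (Fisher's exact test, adjusted p = 1.64e-25). The matched Ppard levels, 45.4% and 45.9%, differed by 0.495 points (SE 0.594). In Slc2a4 the summed difference was -9.67 points (Fisher's exact test, adjusted p = 6.69e-05) where the matched one was 0.203. Neither matched difference passed the adjusted test (stratified chi-square, adjusted p = 0.740 in Ppard and 0.972 in Slc2a4).

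**Figure D4:**
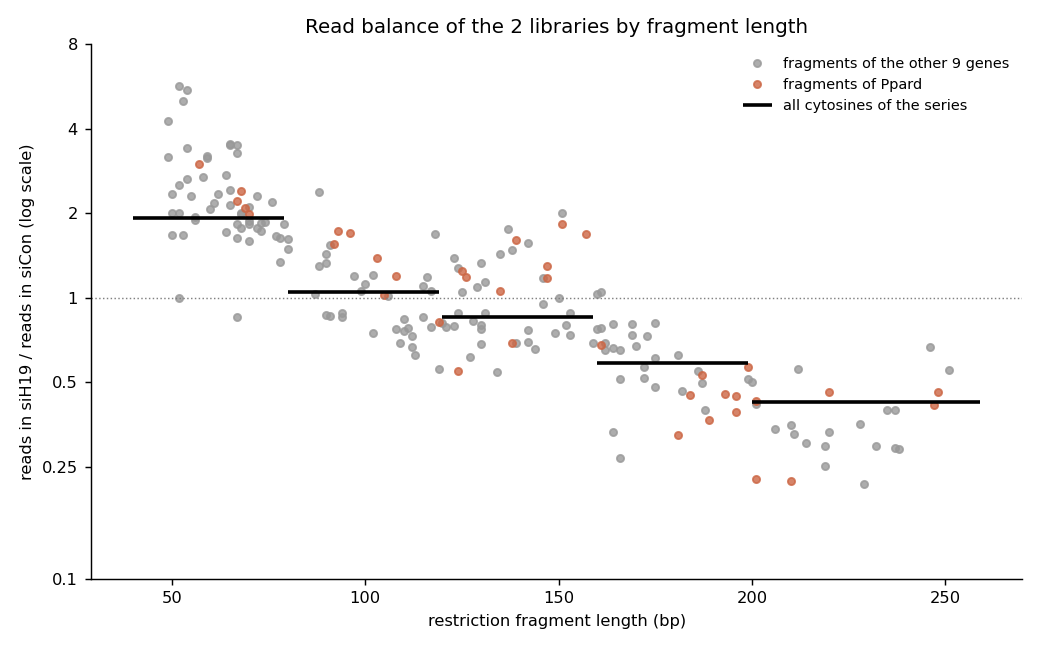
Reads in siH19 divided by reads in siCon (log scale, vertical axis) for each restriction fragment of the 10 genes up to 259 bp, against its length in bp; Ppard in orange, the other genes in grey, and black bars for all cytosines of the series in 5 length classes. The series ratio fell from 1.93 in the shortest class to 0.425 in the longest, and most fragments of Ppard lay on the same slope.

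Some transcription factor motifs contain a CpG, that of NRF1 among them. The covered cytosines inside such letters were low in both libraries except in Slc2a4. Motifs were searched on both strands within 1 kb of the gene starts, and all shares are of the windows of all 55413 genes. The NRF1 core GCGCATGC was found in the windows of Ppargc1b, Esrra and Ppara and in 4.88% of all windows. Its 4 covered cytosines, in Esrra and Ppara, had 4 methylated of 140 reads in siCon and 2 of 180 in siH19. The GC box GGGCGG was in 9 of the 10 windows and 41.9% of all, with 40 covered cytosines at 2.60% and 1.67%. The E-box CACGTG was in 5 windows and 22.8% of all, with 8 covered cytosines, in Ppargc1b and Hk2, at 1.63% and 0%. The full cAMP response element TGACGTCA was in 0 of the 10 windows and 2.71% of all, and its shorter core TGACG, which the full element contains, in 7 and 52.6%. The covered cytosines of that core had 0 methylated reads in Ppard and Pdk4 and under 5% in Ppara, but 21 of 41 in siCon and 17 of 43 in siH19 in Slc2a4. Tfam alone held CCGGAAG, the core of a GABP site (15.8% of all windows), whose CpG lies inside an MspI site and was left out. A match gives letters only, and no binding was measured.

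Of 49 further genes of the same pathways, listed with earlier results of these data known, the differences were small. Of the 43 promoters tested, 0 were called at 10 points, 7 were higher and 1 lower with an adjusted p under 0.05 (7.39% of all promoters, either direction), and the median difference was 0.134 points. Tfb2m, a transcription factor of mitochondrial DNA, stood at 0.303% in siCon and 1.31% in siH19 (stratified chi-square, adjusted p = 1.35e-06). Prkab1, a subunit of the energy sensor AMPK, stood at 2.22% and 3.27% (stratified chi-square, adjusted p = 0.00342). Med1, a subunit of the Mediator complex, stood at 5.43% and 3.5% (stratified chi-square, adjusted p = 0.00469). The 5 genes grouped under mitochondrial DNA were Tfb1m, Tfb2m, Polrmt, Polg and Twnk. Of these, Tfb1m, Tfb2m and Polrmt had an adjusted p under 0.05, each higher in siH19 and each under 2% in both libraries. Polg and Twnk did not pass (stratified chi-square, adjusted p = 0.831 and 0.656). The promoter of Tfam itself differed by 0.0257 points.

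In gene bodies of these 49 genes, 2 were higher and 2 lower with an adjusted p under 0.05, 0 were called at 10 points, and the median difference was 0.253. Of all gene bodies, 3.7% had an adjusted p under 0.05 and 0.365% were called. Ncor1, the gene of a corepressor of nuclear receptors, stood at 7.51% and 6.48% (stratified chi-square, adjusted p = 0.000299). Tfb2m stood at 1.95% and 3.74% (stratified chi-square, adjusted p = 0.0013), and Med1 at 22.2% and 19.9% (stratified chi-square, adjusted p = 0.00704). The remaining one was Ucp3, the gene of a mitochondrial carrier of muscle, at 64.4% and 70.4% (stratified chi-square, adjusted p = 0.0253), named because only 4 passed. Whether the 10 genes differ from these 49 was not tested.

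**Figure D5:**
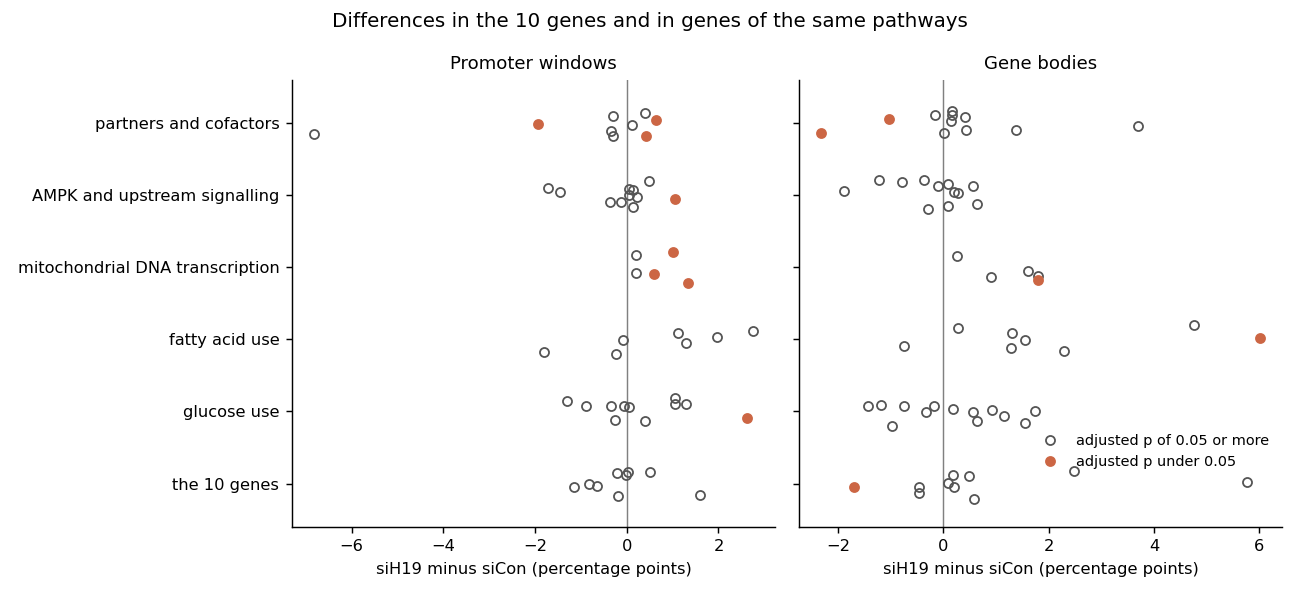
Difference in matched methylation level, siH19 minus siCon (percentage points, horizontal axis), of each tested promoter window (left) and gene body (right), by pathway group, with filled points for an adjusted p under 0.05; the vertical spread within a group only separates the points. All points lay between -6.82 and 6.02 points, and the Hk2 gene body was the only filled point among the 10 genes.

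As a description of the cells, the promoters of muscle genes were at mixed levels. Des, the gene of the muscle intermediate filament desmin, stood at 3.79% in siCon and 5.07% in siH19, Ckm at 7.93% and 12.3%, and Acta1 at 12.3% and 12.4%. The regulators Myod1, Myog and Myf5 stood at 35.1%, 74.0% and 62.8% in siCon and 38.9%, 77.5% and 53.7% in siH19. They rested on 59, 6 and 9 cytosines in that order, and Cdh15 had no covered cytosine. Of the genes of other cell types, Krt14 was at 93.5% and 92.9% and Nanog at 33.3% and 54.2%, each over 3 cytosines, and Alb, Ins2 and Gfap had none. These levels do not identify the cells.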

How the data were processed

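RRBS libraries had been prepared from genomic DNA of siCon and siH19 myotubes by digestion with MspI and TaqαI and selection of a pair of size bands from a gel. The authors' methods give a non-directional Bismark alignment (version not given in the sources used here). They also state that bases filled in at fragment ends were trimmed before methylation was called. The submitters' processing notes name mm10 and bcl2fastq 1.8.4. Whether duplicates were removed is not stated. The deposited files give per CpG cytosine the methylated and total read counts and a score, the methylated fraction scaled by the authors to 1000, which was used only to check parsing.

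Members and gene lists were chosen with earlier results of these data known. Cytosines with at least 5 reads in both libraries were kept, and those inside CCGG or TCGA (45.8%) were left out, since end repair can overwrite them. Whether overwritten bases remained after the authors' trimming was not tested. Genes came from GENCODE vM21 basic, on GRCm38. Over the cytosines kept in the series the median depth was 24 reads in each library. Over every cytosine in a file it was 12 in siCon and 13 in siH19. Fisher's exact test was applied to single cytosines, and promoters, gene bodies (at least 5 cytosines) and restriction fragments (at least 3) by a Cochran-Mantel-Haenszel chi-square test stratified by cytosine, with Benjamini-Hochberg adjustment over the series, in Python 3.11.15 (numpy 2.4.6, scipy 1.17.1, pandas 2.3.3, numba 0.67.0). The code was tested on simulated data. All 10 genes are named, with each gene's lowest-p fragment of at least 3 cytosines, every strong cytosine and the 3 pathway genes of lowest p for promoters and for gene bodies; further fragments, motifs and pathway genes were picked after their values were seen. Alternatives changed the read minimum, strands, site and repeat cytosines, window, size of change and weighting. A marker gene of another cell type is not reported here.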

Additional observations from a re-analysis of the deposited data

How the results depend on the processing

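The 4 strongly changed of 1199 cytosines became 2 of 995 with at least 10 reads and 2 of 726 CpGs with strands summed. They became 19 of 1925 with restriction-site cytosines included. Of the 1199, 14 passed at 20 points and 0 at 50 points. With site cytosines included, 1 of the 1925 cytosines passed Benjamini-Hochberg adjustment (Hk2, 23.5% in siCon and 69.4% in siH19). In that setting 1 of 178 fragments was called (Ppard, -24.0 points). With reads summed, 1 of 10 gene bodies was called (Ppard, 13.0 points). No share over the whole series is given for these settings, so the counts cannot be judged against it. Promoter differences kept their sign in 32 of 36 alternatives; those that turned were Esrra (0.119, sites included), Ppara (0.0253, sites included; 0.296, 500-bp window) and Hk2 (0.524, reads summed). Gene-body differences turned for Nrf1 (-2.06, reads summed; -0.0180, sites included), Tfam (-0.115, at least 10 reads; -0.0760, sites included), Ppara (0.0448, sites included), Slc2a4 (-9.67, reads summed) and Hk2 (1.28, reads summed). The cause of each was not tested. No promoter was called under any alternative run, but with reads summed the differences of Ppara (-1.41 points, Fisher's exact test, adjusted p = 0.0258) and Slc2a4 (-4.55, adjusted p = 0.0388) passed the adjusted test below 10 points, as did the Tfam and Slc2a4 gene bodies (3.77, adjusted p = 7.93e-05; -9.67, adjusted p = 6.69e-05). No paired analysis was possible because there was 1 library per group, and no replicate could be left out. Depth limits single cytosines most, with medians of 28 reads in siCon and 30 in siH19.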
